A study of Mus musculus with 39 samples.

Results

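The 10 genes described here are markers of astrocytes and of Bergmann glia, the radially oriented astroglia of the cerebellar cortex: Aqp4, Slc1a2, Slc1a3, Gfap, Gdf10, Aldh1l1, Fabp7, S100b, Aldoc and Hopx. They were chosen by symbol as known astroglial markers and are 10 of the 24100 genes in the deposited table. All 10 were measured in each of the 39 libraries and all passed the filter on low counts in each of the 12 comparisons made.

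All libraries come from mouse cerebellum, in a study of its granule cells, which are small glutamatergic neurons. In TRAP, RNA is pulled down with an EGFP-tagged ribosomal protein, L10a, that a transgene places in chosen cells. Neurod1 TRAP used cerebellar lysates of Tg(NeuroD1-Egfp-L10a) mice at postnatal day 7, 12 or 21 (P7, P12, P21; 5 libraries each). Math1 TRAP, after the older name of Atoh1, used granule cell progenitors of the Tg(Atoh1-Egfp-L10a) line, isolated at P7 before the pull-down (4 libraries). Total cerebellar RNA served as input, with 1 library each at P7, P12 and P21. Granule cells from P6 to P7 C57Bl/6J mice were cultured for 5 days in vitro (DIV5) with 100 nM UNC1999, an inhibitor of the histone methyltransferases EZH2 and EZH1, and the corresponding untreated groups were freshly isolated cells (DIV0) and cultures kept in the solvent DMSO until DIV2 or DIV5 (2 libraries per group). A separate set of DIV5 cultures came from P7 mice with floxed Ezh1 and Atoh1-Cre (Ezh1 cKO, 4 libraries) and from Ezh1(wt/wt) mice that carry Atoh1-Cre too (Ezh1 wt, 5 libraries). Atoh1 is a gene of granule cell progenitors, so this Cre is not aimed at astroglia. The labels do not say whether libraries of a group came from separate animals or cultures, so p-values measure the spread between these libraries only.

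Astroglia clear glutamate and potassium from the space around synapses, hold water channels at their endfeet on vessels and feed neurons with metabolites. Bergmann glia line up beside Purkinje cells, and young granule neurons migrate inward along their fibres. Fabp7 is typical of radial and immature glia, Gfap of filament-rich and reactive astrocytes, and S100b of maturing ones. None of these genes is wholly specific: Aldoc is also made by a subset of Purkinje cells, S100b by oligodendrocytes, and Hopx and Fabp7 by several kinds of progenitor.

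Levels are given as CPM, the gene's count scaled to a common library total, which allows libraries but not genes to be compared. Log2 fold changes with their standard errors (SE), and the folds computed from them, come from edgeR's quasi-likelihood test with trimmed-mean (TMM) scaling, so they can differ from ratios of CPM. A gene is called higher or lower at a Benjamini-Hochberg adjusted p under 0.05 over all genes tested. Library totals lay between 12084136 and 38546538 counts. In bulk RNA such as this, fewer astroglia and less RNA per astroglial cell cannot be told apart.

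Promoter sequence is shown for Gfap, the gene with the widest range of levels, and for the genes that changed most with age. RefSeq windows (GRCm38.p6) from 250 bases before to 50 after a start were found for 9 of the 10 genes, in 11 windows. They lie at chr10:57784673-57784972 for Fabp7, chr6:90550543-90550842 for Aldh1l1, chr10:76253586-76253885 for S100b and chr11:78323948-78324247 for a downstream start of Aldoc, all on the plus strand, and at chr11:102897151-102897450 on the minus strand for Gfap. Capitals mark matches on either strand to TTGGCA, a part of the site of NFI factors, to the STAT motif TTCNNNGAA, and to the RBPJ motif of Notch signalling, TGGGAA.
Fabp7: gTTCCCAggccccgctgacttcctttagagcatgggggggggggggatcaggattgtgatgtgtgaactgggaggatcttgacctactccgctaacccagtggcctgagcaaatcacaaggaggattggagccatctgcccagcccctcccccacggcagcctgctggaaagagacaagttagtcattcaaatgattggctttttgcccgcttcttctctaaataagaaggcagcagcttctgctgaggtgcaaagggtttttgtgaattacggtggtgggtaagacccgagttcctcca
Aldh1l1: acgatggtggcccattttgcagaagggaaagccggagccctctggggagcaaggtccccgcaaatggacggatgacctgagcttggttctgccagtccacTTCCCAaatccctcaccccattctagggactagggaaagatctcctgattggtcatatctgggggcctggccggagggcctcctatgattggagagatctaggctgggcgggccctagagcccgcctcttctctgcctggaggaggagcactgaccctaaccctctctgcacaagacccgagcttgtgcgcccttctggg
S100b: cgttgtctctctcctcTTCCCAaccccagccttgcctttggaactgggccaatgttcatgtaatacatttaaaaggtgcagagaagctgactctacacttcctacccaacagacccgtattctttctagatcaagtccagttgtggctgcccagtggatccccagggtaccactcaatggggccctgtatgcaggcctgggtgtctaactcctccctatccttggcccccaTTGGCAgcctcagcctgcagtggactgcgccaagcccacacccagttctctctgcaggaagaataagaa
Aldoc: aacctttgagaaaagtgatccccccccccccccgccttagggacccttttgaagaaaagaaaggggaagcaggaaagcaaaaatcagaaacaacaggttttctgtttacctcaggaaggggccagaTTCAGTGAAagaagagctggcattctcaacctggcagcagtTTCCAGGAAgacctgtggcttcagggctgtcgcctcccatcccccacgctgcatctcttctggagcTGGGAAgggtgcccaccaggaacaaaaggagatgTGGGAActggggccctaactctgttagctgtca
Gfap: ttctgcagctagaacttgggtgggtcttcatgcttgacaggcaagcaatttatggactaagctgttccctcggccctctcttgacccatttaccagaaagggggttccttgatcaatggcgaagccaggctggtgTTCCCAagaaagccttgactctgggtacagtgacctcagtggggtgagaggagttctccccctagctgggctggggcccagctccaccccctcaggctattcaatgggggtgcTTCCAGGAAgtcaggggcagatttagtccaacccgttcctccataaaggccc
No matches overlapped. The RBPJ motif was found for 5 of the 9 genes (Aldh1l1, Aldoc, Fabp7, Gfap and S100b), in 6 of their 11 windows. It was found in 25.6% of 32851 RefSeq mouse windows of the same length. The STAT motif was found for 3 genes (Aldoc, Gfap and Slc1a3), in 3 of 11 windows, beside 8.3% of all windows. TTGGCA was found for 2 (Aldoc and S100b), in 2 of 11 windows, beside 14.1%. The Aldoc match to TTGGCA lies in its other window, chr11:78322823-78323122, which is not shown. None of the 9 held the full NFI site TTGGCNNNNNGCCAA (0.0365% of windows) or the SOX motif ACAAAG (18.7%). Fabp7 and Aldh1l1, which fell with age, held an RBPJ match and no other, and S100b and Aldoc, which rose, held an RBPJ match as well.

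The gene bodies lie at chr2:102658239-102790784 (Slc1a2), chr5:77086986-77115123 (Hopx), chr6:90550768-90599171 (Aldh1l1), chr10:57784923-57788450 (Fabp7), chr10:76253836-76261319 (S100b), chr11:78323073-78327781 (Aldoc), chr11:102887336-102897200 (Gfap), chr14:33923587-33936514 (Gdf10), chr15:8634124-8710807 (Slc1a3) and chr18:15389394-15410982 (Aqp4) in the same build. The counts are per gene and do not show which transcripts or exons they came from.

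Each gene spanned a wide range over the 13 groups. Gfap, the intermediate filament protein of astrocytes, spanned 329.7-fold, with a mean of 13.1 CPM in Neurod1 TRAP at P21 and 4311 CPM in Ezh1 cKO cultures. Aldoc, the aldolase C of glycolysis, spanned 121-fold, with 10.7 CPM in Math1 TRAP and 1294 CPM in the P21 input. Aqp4, the water channel of astrocyte endfeet, spanned 108-fold, with 20.8 CPM in Neurod1 TRAP at P21 and 2257 CPM in Ezh1 cKO cultures. The glutamate transporters Slc1a3 (GLAST) and Slc1a2 (GLT-1) had the narrowest ranges, 9.20-fold and 7.67-fold.

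The lowest group was a TRAP group for 9 of the 10 genes. The exception was Gdf10, a secreted member of the TGF-beta family found in Bergmann glia, which was lowest in DIV2 cultures. The highest group was the Ezh1 cKO culture for Aqp4, Gfap, Aldh1l1 and Fabp7, the P21 input for Slc1a2, Slc1a3, Gdf10, S100b and Aldoc, and the P12 input for Hopx. In the order of levels each gene has 12 steps between neighbouring groups, and 4 to 7 of them per gene were smaller than the larger SD of the neighbours. For Gfap these steps were Neurod1 TRAP at P7 to Math1 TRAP, UNC1999 to DMSO at DIV5, DIV5 DMSO to Ezh1 wt, and Ezh1 wt to Ezh1 cKO. The step from Ezh1 wt to Ezh1 cKO was within the SD for Aqp4, Slc1a3, Gdf10, Aldh1l1 and S100b too. So was the step to the highest group from Ezh1 cKO to the P21 input for Slc1a2 and Slc1a3, and from the P7 input to Ezh1 cKO for Fabp7. Each input is 1 library. For Hopx the highest cKO library, at 226.67 CPM, lay above the P12 input at 201.15 CPM. The DMSO and Ezh1 wt cultures belong to separate experiments, and their difference was not tested.

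**Figure D1:**
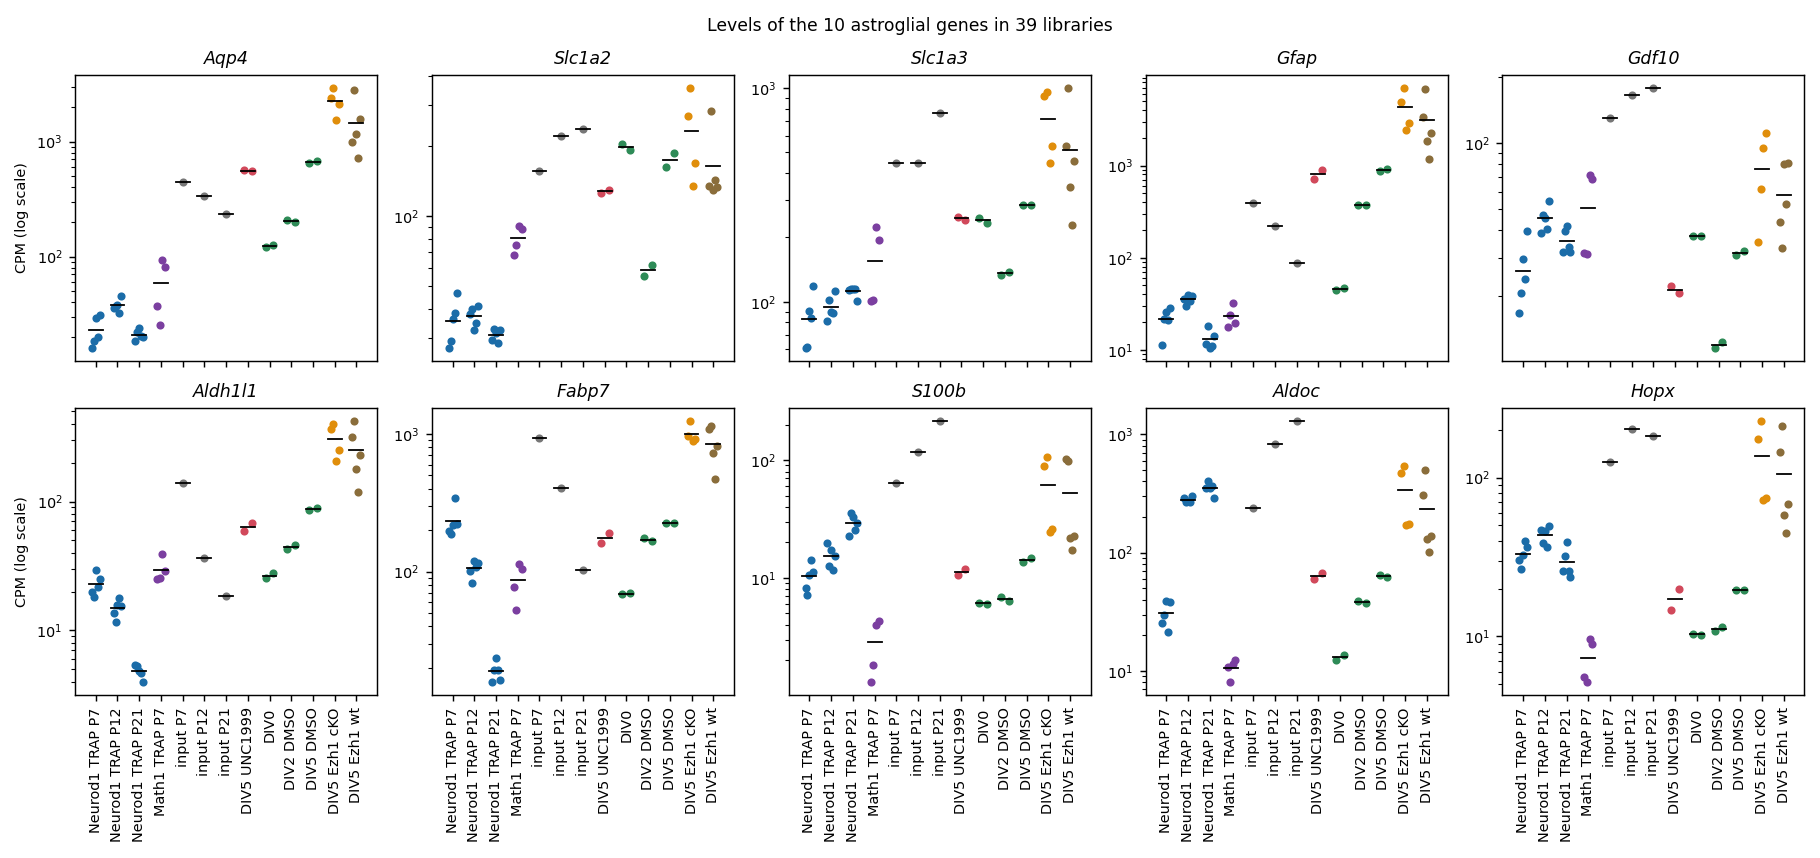
Level in CPM (log scale) of the 10 genes in 39 libraries, 1 panel per gene, with the 13 groups along the x axis, 1 point per library and a bar at each group's mean. The lowest group is a TRAP group for every gene but Gdf10, and Gfap and Aqp4 are highest in the Ezh1 cKO cultures, at means of 4311 and 2257 CPM.

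The 10 genes did not follow a single course. Over the 13 group means, Pearson's r of log2(CPM + 1) between members lay between 0.031 (Aldh1l1 with Aldoc) and 0.963 (Aqp4 with Gfap), with a median of 0.592 over 45 pairs; the groups of an experiment share cells and handling, and these values are descriptions. Among 13035 genes, the pattern closest to Aqp4 was that of Csad (r = 0.983), and those closest to Gfap and Slc1a3 were Lrp4 (r = 0.980) and Sparcl1 (r = 0.980). S100b was closest to Timp4 (r = 0.983), Aldoc to Abhd1 (r = 0.977), Aldh1l1 to Pygb (r = 0.973) and Fabp7 to Glud1 (r = 0.973). Hopx was closest to Ddo (r = 0.971), Gdf10 to Mybpc1 (r = 0.967) and Slc1a2 to Slc35d1 (r = 0.964). Sparcl1, Pygb and Timp4 are themselves on the lists of further astroglial genes used below.

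Neurod1 TRAP was compared with input to see how far the 10 genes are depleted in a granule cell pull-down. Which cells their remaining TRAP counts came from cannot be told from these libraries. All 10 genes were lower in TRAP (all genes: 36.6% higher and 41.2% lower, of 15479), in a fit over 15 TRAP and 3 input libraries with age as a factor. Aqp4 was depleted most. Its TRAP level was 5.17% of input at P7, 11.1% at P12 and 8.95% at P21 (log2 fold change -3.31 ± 0.16, adjusted p = 2.52e-12). Gfap followed at -2.93 ± 0.22 (adjusted p = 8.67e-10) and then S100b, a calcium-binding protein, at -2.42 ± 0.14 (adjusted p = 3.17e-11). Aldh1l1, an enzyme of folate metabolism, was depleted least in this fit, at -1.64 ± 0.17 (adjusted p = 3.93e-08). The order below Aqp4 is not settled, since leaving out 1 library gave overlapping ranges. These were -3.203 to -2.25 for Gfap and -2.467 to -2.318 for S100b. For Aldh1l1 the range was -1.876 to -1.176, beside -2.033 to -1.285 for Aldoc and -1.789 to -1.627 for Fabp7.

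Over the 10 genes, TRAP held 5.17% to 26.6% of the input level at P7 (median 17.5%), 11.1% to 40.8% at P12 (median 21.4%) and 8.95% to 27.2% at P21 (median 15.5%). Further astroglial genes were low too: 13 of 15 channel and transporter genes, 11 of 12 metabolic genes, 12 of 12 secreted or matrix genes, 12 of 12 receptor or surface genes and 9 of 12 transcription factor genes were lower, and 0 of these genes were higher. Of 4 cytoskeleton genes, 2 were lower and 1 was higher, Ezr, the membrane linker ezrin (0.33 ± 0.10, adjusted p = 0.00443). Examples are Hepacam, an adhesion protein (-2.41 ± 0.11), Kcnj10, the potassium channel Kir4.1 (-2.67 ± 0.14), and Sparcl1, a secreted synapse-organising protein (-3.01 ± 0.16). The same held for every gene of the lists for Purkinje cells (8 genes), interneurons (8), oligodendrocyte lineage (12), microglia (11) and vessels and meninges (12), while 8 of 10 granule neuron genes were higher and 0 lower. The median log2 fold change of the 10 genes was -1.98, beside -0.07 for all genes. Scaling by library size alone moved the median of all genes to -0.46 and the calls to 3133 higher and 9089 lower, against 5667 and 6375 with TMM, and left all 10 genes lower.

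Within Neurod1 TRAP, the genes split by age into those that fell, those that rose and those that peaked at P12. Fabp7, the brain fatty acid binding protein, fell most. It had 199, 188, 218, 342 and 220.2 CPM at P7, 102, 83.2, 120.2, 108 and 115 CPM at P12 and 15.9, 19.4, 23.6, 19.3 and 16.3 CPM at P21. No library of one age overlapped those of another, and P21 was 10.9-fold lower than P7 (log2 fold change -3.45 ± 0.20, adjusted p = 1.14e-12). Aldh1l1 had 19.9, 18.1, 29.3, 21.7 and 24.9 CPM at P7, 13.5, 11.6, 15.7, 17.7 and 15.6 CPM at P12 and 5.38, 5.28, 4.82, 4.64 and 4.00 CPM at P21. Its ages did not overlap either, and P21 was 4.19-fold lower than P7 (-2.07 ± 0.14, adjusted p = 9.19e-12).

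Aldoc rose most. It had 25.6, 30.0, 39.4, 21.4 and 38.5 CPM at P7, 288, 266, 275, 269.7 and 299.9 CPM at P12 and 350.4, 403, 351, 369 and 288 CPM at P21. Its rise to P12 was 9.21-fold (adjusted p = 2.49e-14) without overlap, and the step from P12 to P21 was 1.40-fold (adjusted p = 0.00131) with overlapping libraries. S100b rose at both steps, with 8.25, 7.19, 10.6, 14.2 and 11.3 CPM at P7, 19.7, 12.6, 17.3, 11.7 and 15.4 CPM at P12 and 22.5, 35.6, 32.7, 25.4 and 29.1 CPM at P21. P21 was 3.19-fold higher than P7 (1.68 ± 0.22, adjusted p = 3.69e-07), and only the P7 and P12 libraries overlapped.

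Markers of the other cell types that make Aldoc or S100b moved in the same libraries. The 8 Purkinje cell genes, 7 higher and 1 lower at P21 than at P7, summed to 474 to 581 CPM at P7, 913 to 1051 CPM at P12 and 888 to 1118 CPM at P21. Of the 12 oligodendrocyte lineage genes, 8 were higher and 3 lower at P21 than at P7. Those of them with values in all 39 libraries, 11 genes, summed to 283 to 369.6 CPM, 381 to 541 CPM and 378 to 579 CPM at P7, P12 and P21. No gene of either list was at 0 in every library of an age. Their part in the rise of Aldoc and S100b was not tested.

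Gfap peaked at P12, with 11.4, 21.6, 25.8, 21.2 and 28.4 CPM at P7, 35.7, 29.7, 39.7, 33.7 and 38.8 CPM at P12 and 11.6, 18.1, 10.5, 10.99 and 14.2 CPM at P21. All P12 libraries lay above those of the other ages. Gfap was 1.68-fold higher at P12 than at P7 (adjusted p = 0.00175) and 2.44-fold lower at P21 than at P12 (adjusted p = 6.37e-06). Aqp4 had the same shape, at means of 22.8 ± 6.70, 37.6 ± 4.69 and 20.8 ± 2.12 CPM (SD, n = 5 each), with both steps called (adjusted p = 0.0148 and 0.0239). Hopx, a small homeodomain protein of Bergmann glia, had 33.2 ± 5.27, 43.5 ± 5.46 and 29.4 ± 6.52 CPM, and both of its steps were called (adjusted p = 0.0211 and 0.0224). Gdf10 had 26.1 ± 8.91, 45.3 ± 6.07 and 35.7 ± 4.71 CPM and was called at the first step only (adjusted p = 0.00304 and 0.469). The calls of Aqp4 and Hopx from P12 to P21 were lost without P12 library 5 (adjusted p = 0.0568 and 0.0607), and Hopx lost its call also without P21 library 4 or 5 (0.0567 and 0.0557). From P7 to P12, Hopx lost its call without P7 library 2 or P12 library 5 (adjusted p = 0.0632 and 0.0574), and S100b without P7 library 1 or 2 or P12 library 1 (adjusted p = 0.0542 to 0.0593). Gfap was lower at P21 than at P7 (-0.54 ± 0.20, adjusted p = 0.0146), but not without P7 library 5 or P21 library 3 (adjusted p = 0.0509 and 0.0518).

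Of the transporters, Slc1a2 moved little with age and Slc1a3 rose. Slc1a3 had 83.0 ± 24.0, 94.7 ± 12.3 and 112 ± 6.01 CPM at P7, P12 and P21. It was called higher at P21 than at P7 (1.53-fold, adjusted p = 0.00691) and lost that call with scaling by library size alone (adjusted p = 0.0529), as did Gdf10 (adjusted p = 0.0732). Slc1a2 had 35.5 ± 7.93, 37.3 ± 3.57 and 30.9 ± 1.88 CPM and was called in none of the 3 age comparisons, with a 95% interval for P21 against P7 of -0.25 to 0.21 on the log2 scale. In counts, 6 members were higher and 2 lower at P12 than at P7 (all genes: 31.5% and 36.7%), 2 were higher and 5 lower at P21 than at P12 (32.4% and 32.7%), and 4 were higher and 3 lower at P21 than at P7 (38.9% and 42.5%). Most genes of these libraries were called with age.

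The inputs, with 1 library per age and no test, moved in the same direction for the genes that changed most. Input Fabp7 was 940.1, 407 and 104 CPM at P7, P12 and P21, and input Aldh1l1 was 139.5, 36.4 and 18.4 CPM. Input Aldoc was 238, 829 and 1294 CPM, and input S100b 64.1, 117 and 214 CPM. Gfap and Aqp4 differed in course between the RNA sources, as did Slc1a2 and Gdf10. Input Gfap was 394, 220.1 and 88.0 CPM and input Aqp4 441, 339.7 and 233 CPM, both highest at P7, whereas TRAP was highest at P12. TRAP Gfap was therefore 5.51% of input at P7, 16.1% at P12 and 14.9% at P21. Input Slc1a2 rose over 156.7, 220.2 and 236.9 CPM, while TRAP Slc1a2 was not called with age. Input Gdf10 was 130.5, 166.6 and 179.4 CPM, highest at P21, whereas TRAP Gdf10 was highest at P12.

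**Figure D2:**
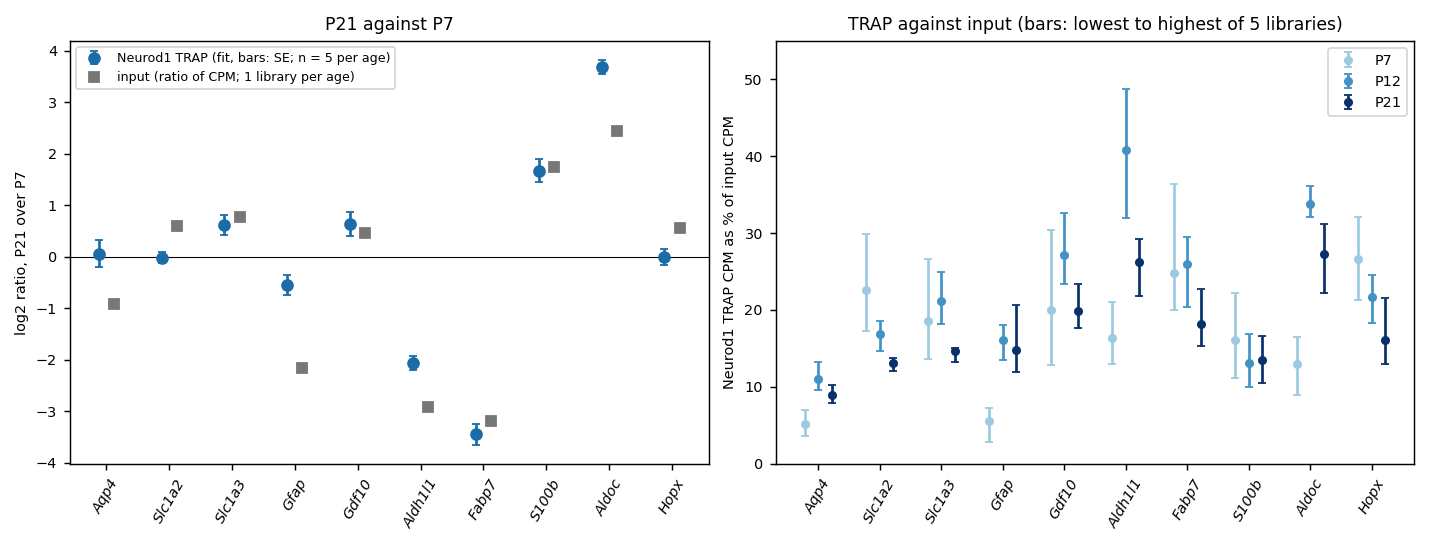
Left, log2 ratio of P21 over P7 for each gene in Neurod1 TRAP (circles, fit with SE bars, 5 libraries per age) and in input (squares, ratio of CPM, 1 library per age). Right, Neurod1 TRAP level as a percentage of the input level of the same age, with bars over the 5 libraries. On the left, Fabp7 and Aldh1l1 lie below 0 and Aldoc and S100b above 0 in both RNA sources. On the right, Aqp4, Gfap, Aldh1l1 and Aldoc have their lowest share of input at P7.

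Further astroglial genes shared this mixture. At P21 against P7, 12 higher and 2 lower of 15 channel and transporter genes were called, among them Atp1b2, a sodium pump subunit also found in neurons (991 ± 53.9 against 158 ± 32.1 CPM, 2.83 ± 0.19). Metabolic genes had 8 higher and 3 lower of 12, with Mt3, a metal-binding metallothionein, up (267 ± 32.5 against 25.1 ± 1.11 CPM, 3.59 ± 0.09) and Phgdh, the first enzyme of serine synthesis, down (5.27 ± 0.603 against 58.0 ± 8.73 CPM, -3.28 ± 0.12). Secreted and matrix genes had 10 higher and 2 lower of 12, with Clu, clusterin, at 55.2 ± 3.83 against 4.00 ± 1.35 CPM, 3.99 ± 0.22. Receptor and surface genes had 9 higher and 2 lower of 12, for example Gpr37l1 (2.64 ± 0.19). Transcription factor genes went the other way, with 0 higher and 10 lower of 12, among them Sox9, which specifies glia (2.49 ± 0.586 against 29.5 ± 3.36 CPM, -3.39 ± 0.14), and Nfia (116 ± 15.9 against 444 ± 42.2 CPM, -1.77 ± 0.09). Of 4 cytoskeleton genes 1 was higher and 3 lower, among them Vim, the filament protein of immature glia (-1.72 ± 0.16). Several of these genes are also expressed in granule cells or their progenitors.

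At P7, Neurod1 TRAP was compared with Math1 TRAP. The lines differ in the tagged cells and also in the starting material, whole cerebellum for Neurod1 and isolated progenitors for Math1, and these cannot be told apart. Hopx, S100b, Aldoc and Fabp7 were higher in Neurod1 TRAP, and Slc1a2, Aqp4, Slc1a3, Gdf10 and Aldh1l1 were lower (all genes: 36.5% higher, 35.8% lower). Hopx had 30.2, 26.6, 32.5, 39.9 and 36.7 CPM in Neurod1 TRAP, against 5.56, 5.21, 9.69 and 9.02 CPM in Math1 TRAP (4.65-fold higher, adjusted p = 9.68e-10). Fabp7 had the Neurod1 values at P7 given above, against 76.8, 53.0, 114 and 105 CPM in Math1 TRAP (2.71-fold higher, adjusted p = 1.69e-06). Slc1a2 had 27.1, 28.9, 36.2, 38.2 and 46.9 CPM in Neurod1 TRAP, against 68.0, 75.3, 90.5 and 88.4 CPM in Math1 TRAP (2.28-fold lower, adjusted p = 7.82e-09). For each of these genes the groups did not overlap.

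S100b and Aldoc, too, were higher in Neurod1 TRAP without overlap, at 10.3 ± 2.75 against 2.85 ± 1.49 CPM (1.97 ± 0.28) and at 31.0 ± 7.89 against 10.7 ± 1.80 CPM (1.55 ± 0.15). The Purkinje cell genes moved with them, at a sum of 474 to 581 CPM in Neurod1 TRAP against 63.3 to 92.3 CPM in Math1 TRAP, with 8 of 8 higher. Interneuron genes had 5 higher and 1 lower of 8, and oligodendrocyte lineage genes 6 higher and 3 lower of 12. The genes that were lower in Neurod1 TRAP moved with 10 of 12 vascular and meningeal genes, with 6 of 12 secreted astroglial genes such as Sparcl1 (37.2 ± 14.1 against 171 ± 76.2 CPM, -2.20 ± 0.26), and with Vim (43.8 ± 8.95 against 214 ± 29.3 CPM, -2.30 ± 0.16). Channel and transporter genes had 3 higher and 7 lower of 15, and receptor and surface genes 2 higher and 7 lower of 12. Metabolic genes had 4 higher and 3 lower of 12, and transcription factor genes 5 higher and 3 lower of 12. The part of the cell types named here was not tested. Gfap was not called, at 21.7 ± 6.50 CPM in Neurod1 TRAP and 23.4 ± 6.62 CPM in Math1 TRAP (adjusted p = 0.607).

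Math1 libraries 1 and 2 differed from 3 and 4. Aqp4 was at 37.3, 25.2, 93.5 and 80.6 CPM in libraries 1 to 4 and Gdf10 at 31.4, 31.1, 71.3 and 68.4 CPM. With Math1 libraries 1 and 2 alone, 2 members in place of 5 were lower in Neurod1 TRAP, as Slc1a3, Gdf10 and Aldh1l1 lost their calls (adjusted p = 0.0985, 0.203 and 0.303). The calls over all genes in that subset are not given here. Aldh1l1 lost its call also without Math1 library 3 or Neurod1 library 2 (adjusted p = 0.133 and 0.0614). The 4 higher genes were called with either pair of libraries.

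Math1 TRAP was also set against freshly isolated DIV0 cells. This compares RNA pulled down from a transgenic line with RNA of untagged cells from other mice, and pull-down, line and cells cannot be told apart. Math1 TRAP had lower Slc1a2 (80.6 ± 10.7 against 198 ± 7.55 CPM, adjusted p = 4e-05) and Gfap (23.4 ± 6.62 against 45.9 ± 1.62 CPM, adjusted p = 0.00958). The other 8 were not called (all genes: 33.2% higher, 33.4% lower). Marker genes of most other non-granule cells were lower in the same libraries. Vascular and meningeal genes, 12 of 12 lower, summed to 62.2 to 116 CPM in Math1 TRAP, against 899 to 901 CPM at DIV0. Microglia genes, 9 of 10 lower, summed to at most 14.6 CPM in Math1 TRAP, against 104 to 108 CPM at DIV0, and 10 of 11 oligodendrocyte lineage, 7 of 7 interneuron and 9 of 10 reactive astrocyte genes were lower. Opalin and Steap4, of the oligodendrocyte and reactive lists, were at 0 in every Math1 library. Of 7 Purkinje cell genes 5 were higher and 2 lower. The 8 genes of that list nevertheless summed to 63.3 to 92.3 CPM in Math1 TRAP, against 108.3 to 109.8 CPM at DIV0. The part of these cells was not tested. The counts of members called follow the Math1 libraries: with libraries 1 and 2 alone 6 members were lower, and with libraries 3 and 4 alone 3 were higher (Gdf10, Aldh1l1 and Fabp7). The calls over all genes in these subsets are not given here, so the counts do not show a shift particular to the members. Fabp7 was called higher without Math1 library 2 (adjusted p = 0.00519), and Aqp4 and S100b lower without Math1 library 3 (adjusted p = 0.0276 and 0.0463). Without DIV0 library 2 Gfap lost its call (adjusted p = 0.0558).

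In culture, most of the 10 genes rose over 5 days. At DIV5 in DMSO 8 were higher and 2 lower than at DIV0 (all genes: 40.2% and 38.2%). Gfap rose most, with 44.8 and 47.1 CPM at DIV0, 377 and 375 CPM at DIV2 and 872 and 908 CPM at DIV5. It was 8.34-fold higher at DIV2 than at DIV0 (adjusted p = 4.75e-10) and 17.9-fold higher at DIV5 than at DIV0 (4.16 ± 0.10, adjusted p = 4.16e-11). Aqp4 had 121 and 125 CPM at DIV0, 209 and 199 CPM at DIV2 and 649.5 and 676 CPM at DIV5, a 4.98-fold rise (adjusted p = 4.02e-14). Over the same days Aldoc rose 4.42-fold (adjusted p = 1.22e-11), Fabp7 3.03-fold (adjusted p = 2.17e-11), Aldh1l1 3.03-fold (adjusted p = 9.88e-11) and S100b 2.17-fold (adjusted p = 1.03e-06).

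The glutamate transporters and Gdf10 fell first and rose later. Slc1a2 had 204 and 193 CPM at DIV0, 55.1 and 61.9 CPM at DIV2 and 162 and 187 CPM at DIV5. It was 3.33-fold lower at DIV2 than at DIV0 (adjusted p = 3.83e-11) and 2.71-fold higher at DIV5 than at DIV2 (adjusted p = 6.7e-10). Slc1a3 had 247 and 233 CPM, 134 and 138 CPM and 285 and 284 CPM at the same times. Gdf10 had 37.8 and 37.7 CPM, 11.6 and 12.3 CPM and 30.8 and 32.3 CPM. All 3 genes thus had their lowest values at DIV2 in both libraries. Slc1a3 was 1.096-fold higher at DIV5 than at DIV0 (adjusted p = 0.0336), a call that was lost with DESeq2 (adjusted p = 0.171), without DIV0 library 2 (adjusted p = 0.207) or without DMSO library 1 (adjusted p = 0.175).

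By step, 5 members rose and 3 fell between DIV0 and DIV2 (all genes: 36.4% and 35%), and S100b and Hopx were not called (adjusted p = 0.273 and 0.399). Between DIV2 and DIV5 all 10 rose (all genes: 31.1% higher, 35.7% lower), by 0.26 (Fabp7) to 1.56 (Aqp4) on the log2 scale. The median was 0.94, beside -0.05 for all genes.

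Further astroglial genes rose between DIV2 and DIV5 as well: 14 of 15 channel and transporter genes, 12 of 12 secreted or matrix genes, 10 of 11 metabolic genes and 8 of 11 reactive astrocyte genes were higher, with 0 lower in these lists. Receptor and surface genes had 9 higher and 2 lower of 12, with Gria4, an AMPA receptor subunit, lower (-1.08 ± 0.06), and cytoskeleton genes 2 higher and 2 lower of 4. Higher genes of the astroglial lists included Gjb6, a connexin of astrocyte gap junctions (40.4 ± 5.00 against 0.559 ± 0.179 CPM, 6.07 ± 0.19), Glul, glutamine synthetase (443 ± 34.3 against 149 ± 0.843 CPM, 1.43 ± 0.06), and Apoe, a lipid carrier (1218 ± 70.9 against 148 ± 13.1 CPM, 2.90 ± 0.08). The fold of Gjb6 rests on a very low level at DIV2. Transcription factor genes were split, 6 higher and 2 lower of 12, with Id3 higher (1.72 ± 0.11) and Nfia lower (-0.95 ± 0.06). Marker genes of other non-neuronal cells moved in the same days. Microglia genes, 11 of 11 higher, summed to 104 to 108 CPM at DIV0, 113 to 114 CPM at DIV2 and 821 to 862 CPM at DIV5. Vascular and meningeal genes, 9 of 12 higher, summed to 899 to 901 CPM, 2996 to 4868 CPM and 12430 to 13790 CPM. Between DIV0 and DIV2, however, 3 of these 12 were higher and 8 lower, and the sum at DIV2 was mostly the fibrillar collagens Col1a1 (2735 CPM) and Col3a1 (1007 CPM). At DIV5 against DIV0, 6 were higher and 5 lower. Oligodendrocyte lineage genes had 1 higher and 9 lower of 11 between DIV0 and DIV2, 3 higher and 4 lower between DIV2 and DIV5, and 2 higher and 8 lower over both steps. No gene of these lists was at 0 in every library of a time. Their part in the CPM of the 10 genes was not tested.

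**Figure D3:**
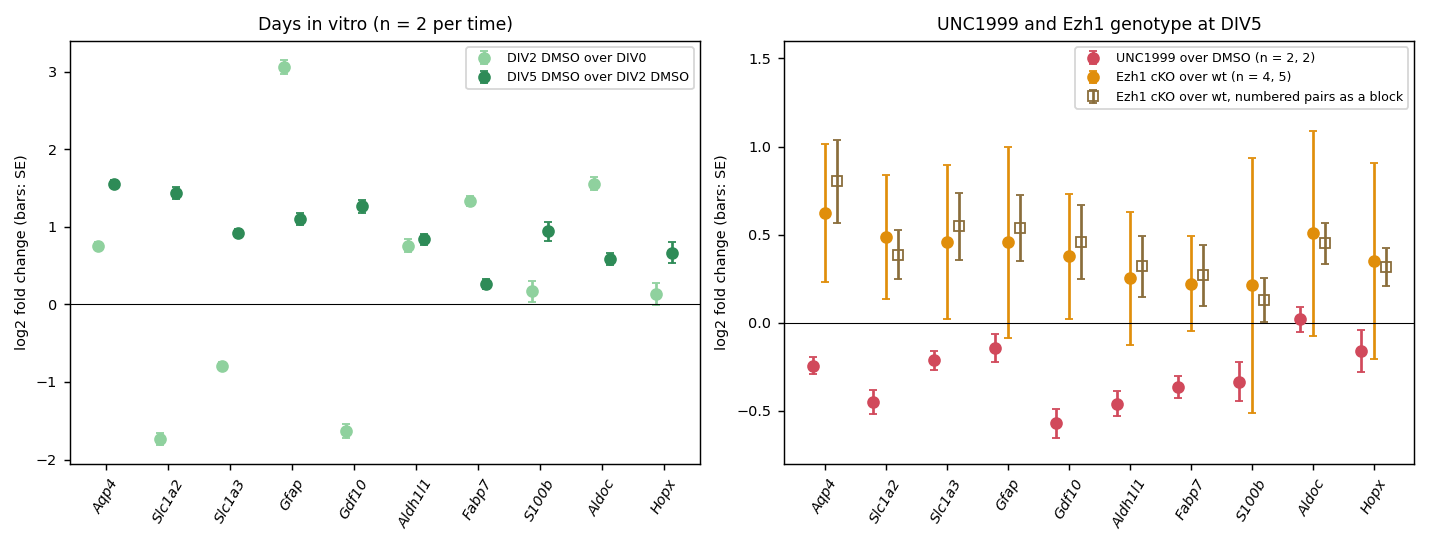
Log2 fold changes of the 10 genes with SE bars: left, DIV2 DMSO over DIV0 and DIV5 DMSO over DIV2 DMSO; right, UNC1999 over DMSO and Ezh1 cKO over wt, cKO over wt also with numbered pairs as a block. All 10 points for DIV5 over DIV2 lie above 0, the UNC1999 points lie between -0.57 and 0.02, and the cKO points lie above 0 with SE of up to 0.72.

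UNC1999 lowered part of the set at DIV5: 6 of the 10 genes were lower and 0 higher (all genes: 6.36% higher and 5.53% lower, of 15978). Gdf10 changed most, with 22.1 and 20.6 CPM in UNC1999 cultures, against 30.8 and 32.3 CPM in DMSO cultures (-0.57 ± 0.08, adjusted p = 0.000547). Aldh1l1 had 59.2 and 67.7 CPM in UNC1999 cultures, against 86.0 and 88.7 CPM in DMSO cultures (-0.46 ± 0.07, adjusted p = 0.000899). Slc1a2 had 126 and 129.8 CPM in UNC1999 cultures, against 162 and 187 CPM in DMSO cultures (-0.45 ± 0.07, adjusted p = 0.000897). The groups did not overlap for any of them. Fabp7 (-0.36 ± 0.06, adjusted p = 0.00222), Aqp4 (-0.24 ± 0.05, adjusted p = 0.00541) and Slc1a3 (-0.21 ± 0.05, adjusted p = 0.0175) were lower by less, and the largest of the 6 changes, that of Gdf10, was 1.48-fold.

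Gfap, S100b, Aldoc and Hopx were not called. S100b had 10.6 and 11.996 CPM in UNC1999 cultures and 13.7 and 14.8 CPM in DMSO cultures, without overlap (-0.33 ± 0.11, adjusted p = 0.0667). Aldoc had 60.1 and 67.5 CPM in UNC1999 cultures and 64.2 and 61.7 CPM in DMSO cultures, with a 95% interval for its log2 fold change of -0.13 to 0.17. Gfap had 715 and 898 CPM in UNC1999 cultures and 872 and 908 CPM in DMSO cultures, and was called lower without UNC1999 library 2 (-0.30, adjusted p = 0.00739). The call of Slc1a3 was lost without DMSO library 1 or UNC1999 library 2 (adjusted p = 0.102 and 0.129), and that of Aqp4 without UNC1999 library 2 (adjusted p = 0.0544). The 10 genes summed to 1991 to 2197 CPM in UNC1999 cultures, against 2408 to 2498 CPM in DMSO cultures.

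Among the further astroglial genes, 0 higher and 5 lower of 12 secreted or matrix genes were called, for example Apoe (923 ± 109.7 against 1218 ± 70.9 CPM, -0.40 ± 0.07, adjusted p = 0.0055). Reactive astrocyte genes had 0 higher and 5 lower of 11, among them Ggta1 (-0.48 ± 0.11) and Cd44, a hyaluronan receptor (-0.46 ± 0.10). Receptor and surface genes had 1 higher and 4 lower of 12, with Gria4 higher (0.34 ± 0.06), and of 4 cytoskeleton genes none was called. Transcription factor genes had 0 higher and 2 lower of 12, which were Sox9 (-0.43 ± 0.08) and Rfx4 (-0.43 ± 0.11). Metabolic genes had 0 higher and 3 lower of 11, and of the channel and transporter genes (1 higher and 3 lower of 15) Atp1b2 was the higher one (659.8 ± 13.3 against 548 ± 3.44 CPM, 0.27 ± 0.06). Granule neuron genes rose in the same cultures, 8 higher and 0 lower of 10, with Zic1 at 1543 ± 46.1 against 1094 ± 27.3 CPM, 0.49 ± 0.04, and summed to 4829 to 4996 CPM in UNC1999 cultures, against 3528 to 3695 CPM in DMSO cultures. Microglia genes had 1 higher and 3 lower of 11 and summed to 694 to 798 against 821 to 862 CPM, vascular and meningeal genes had 0 higher and 2 lower of 12 and summed to 10320 to 10650 against 12430 to 13790 CPM, and interneuron genes had 0 higher and 5 lower of 7. The part of these cell types was not tested.

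The Ezh1 deletion was followed in its own DIV5 cultures. Ezh1 itself had 34.8, 36.5, 35.6 and 33.7 CPM in cKO cultures, against 40.7, 42.1, 49.9, 47.5 and 41.0 CPM in wt cultures. The genotypes did not overlap, but the difference was small and was not called (-0.34 ± 0.09, adjusted p = 1). The counts cover the whole gene, and which exons are floxed is not given in the sources used here.

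No member was called between the genotypes. Of 14461 genes edgeR called 0 (0% in either direction), 169 had an unadjusted p under 0.05, none of them a member, and DESeq2 called 1 higher and 0 lower. All 10 estimates were above 0, with a median log2 fold change of 0.42 beside -0.01 for all genes. Aqp4 had 2405, 2959.6, 1536 and 2127 CPM in cKO cultures, against 997, 2810.4, 1163, 721 and 1582 CPM in wt cultures (0.62 ± 0.39, 95% interval -0.26 to 1.51, adjusted p = 1). Gfap had 4932, 7026, 2405 and 2882 CPM in cKO cultures, against 3388, 6822, 1843, 1178 and 2276 CPM in wt cultures (0.46 ± 0.54, 95% interval -0.76 to 1.68). The genotypes overlapped, and the 95% interval spanned 0, for all 10 genes.

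Much of the spread in these cultures lay between libraries 1 and 2 and libraries 3 to 5 of both genotypes. These samples separated on the first principal component of 14358 genes outside the lists used here, which held 84.1% of the variance, and the labels do not name such sets. S100b was at 89.5 to 107 CPM in cKO and 98.4 to 101 CPM in wt libraries 1 and 2, and at 24.5 to 26.0 CPM in cKO and 17.3 to 22.5 CPM in wt libraries 3 to 5. The mean of libraries 1 and 2 over that of libraries 3 to 5 was 4.43 for S100b, 3.20 for Aldoc, 2.99 for Hopx, 2.62 for Gfap and 2.12 for Slc1a3. These sets did not overlap for 7 of the 10 genes, and the share of all genes without overlap was not counted. Gdf10 ran the other way, at 0.517. Oligodendrocyte lineage genes summed to 1362 to 1569 CPM in cKO and 1027 to 1256 CPM in wt libraries 1 and 2, and to 269 to 371 CPM in cKO and 317 to 341 CPM in wt libraries 3 to 5. Microglia genes summed to 487 to 591 CPM in cKO and 606 to 668 CPM in wt libraries 1 and 2, and to 77.0 to 90.1 CPM in cKO and 57.9 to 95.2 CPM in wt libraries 3 to 5.

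Within libraries 1 and 2 the mean of cKO over wt was 0.983 for S100b and 0.984 for Fabp7, with the other 8 genes above 1. Within libraries 3 to 5 it lay between 1.121 (Slc1a2) and 1.59 (Aqp4). There cKO lay above wt without overlap for Gfap, Gdf10, Fabp7, S100b, Aldoc and Hopx, and the genotypes overlapped for Aqp4, Slc1a2, Slc1a3 and Aldh1l1. Each gene had only 2 cKO and 3 wt libraries there, and the share of all genes without overlap was not counted. No member was called within either set. The labels do not say whether replicate numbers pair the genotypes. With same-numbered libraries taken as pairs, 7, 8, 10 and 10 of the 10 genes were higher in cKO in pairs 1, 2, 3 and 4. The share over all genes was not counted. With the pairs as a block the log2 fold changes lay between 0.13 ± 0.12 (S100b) and 0.80 ± 0.23 (Aqp4), and 6 members had an unadjusted p under 0.05, as had 1430 of 14461 genes. None was called (adjusted p = 0.493 to 0.681).

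**Figure D4:**
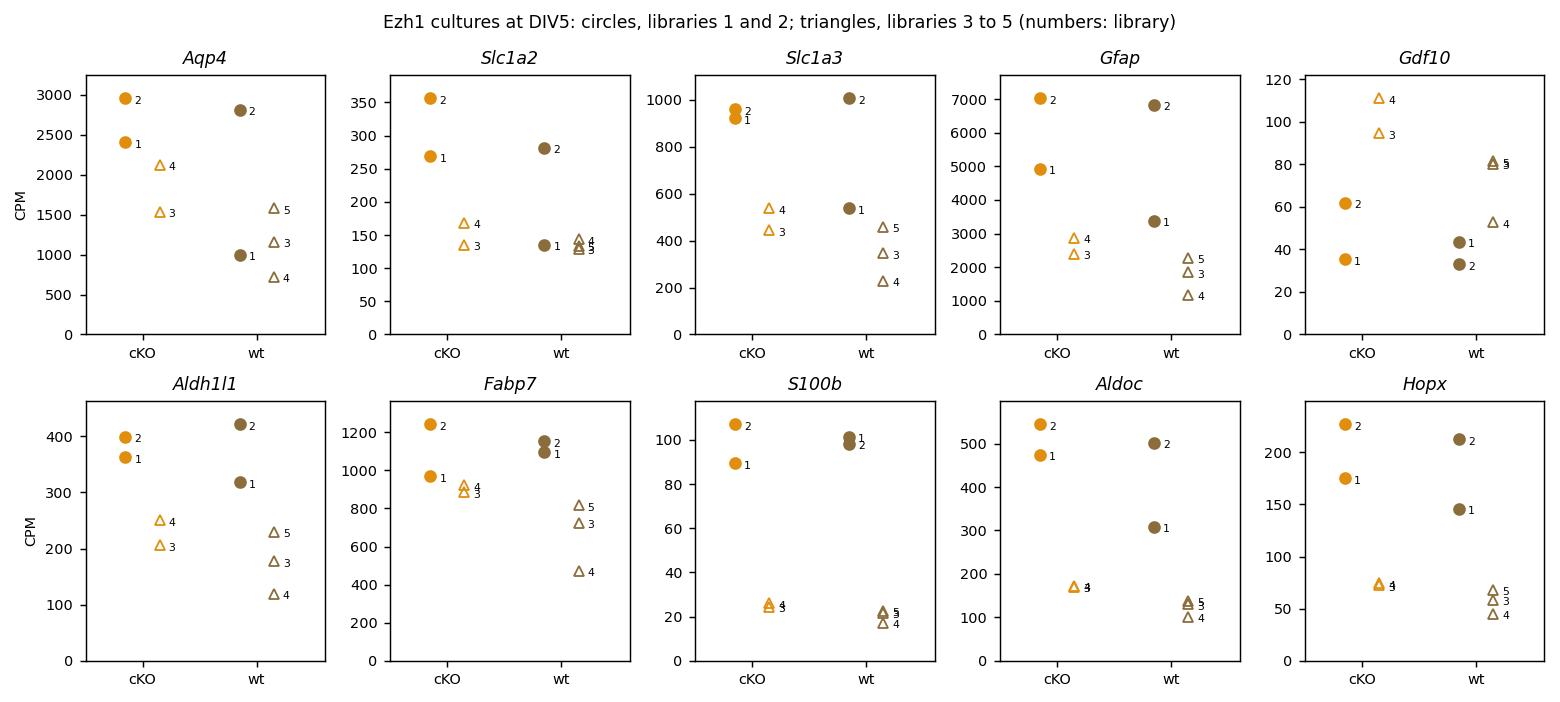
Level in CPM of the 10 genes in the 9 Ezh1 cultures at DIV5, cKO left and wt right in each panel, with circles for libraries 1 and 2, triangles for libraries 3 to 5 and the library number beside each point. For S100b, Aldoc and Hopx the circles lie far above the triangles in both genotypes (ratios of 4.43, 3.20 and 2.99), and cKO and wt overlap in every panel.

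UNC1999 and Ezh1 cKO share no library, and the difference between their effects was tested directly. It was below 0 for all 10 genes, between -0.51 ± 0.94 (Aldoc) and -0.95 ± 0.59 (Gdf10), and none was called (adjusted p = 1 for each). Over 15453 genes edgeR called 0 (0%), 213 had an unadjusted p under 0.05, none of them a member, and DESeq2 called 6 higher and 1 lower. With replicate numbers as a block 1 gene was called higher (0.00647%), not a member, and the members had adjusted p-values between 0.277 and 0.51. In that fit 10 of 10 members had an unadjusted p under 0.05, as had 1472 of 15453 genes. For Slc1a2, lower with UNC1999, the 95% interval of the difference was -2.20 to 0.30.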

How the data were processed

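RNA was sequenced from 39 libraries in 13 groups of mouse cerebellar TRAP, input and cultured cells, as 75-base single-end reads per the labels. Values are estimated counts by gene, deposited by the authors as whole numbers (0 values with decimals). Salmon 0.8.2 and the build mm10 appear in the submitters' processing notes, and their roles are not given in the sources used here. Of 24100 gene identifiers 24045 were matched to symbols and 55 were not. In the 9 Ezh1 libraries 1041 genes, 1012 on X and 28 on Y, were blank, none of them a member; elsewhere they held 2.938% to 3.665% of counts. CPM used the library total of 12084136 to 38546538 counts, and no measure of length was used.

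Genes were kept by filterByExpr (minimum count 10, minimum sum 15) and tested with edgeR 4.0.16 under R 4.3.3, using TMM factors, a robust quasi-likelihood fit and Benjamini-Hochberg adjustment over all genes tested, with calls at 0.05. An SE is the log2 fold change over the root of the F statistic, and 95% intervals use the test's degrees of freedom. Scripts were tested on simulated data. Alternatives were DESeq2 1.42.0, scaling by library size, no filter, a replicate block, library subsets and leaving out each library. Members and lists were chosen with earlier results of these data known. Genes named beside the 10 were, per list, up to 3 called genes by adjusted p, and up to 2 by level for cell types. The values of 1 such gene are not reported here.

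Whether replicate numbers of the Ezh1 cultures pair the genotypes is not stated in the labels. Same-numbered libraries deviated together from their group means, with correlations of 0.858, 0.898, 0.846 and 0.816 over 14505 genes. The split between libraries 1 and 2 and libraries 3 to 5 contributes to these correlations, and pairing cannot be told apart from it. Motifs were searched on both strands with Python 3.11.15.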

Additional observations from a re-analysis of the deposited data

Results flagged for a closer look

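Of 60 sets of a member's levels in a group of 4 or 5 libraries, 3 held a library far from the others by a gap test that picks about 1 in 20 such sets by chance. Slc1a2 was at 281.4 CPM in Ezh1 wt library 2, where the other 4 wt libraries had 129 to 144 CPM. Slc1a3 was at 101.3 CPM in Neurod1 TRAP P21 library 5, where the other 4 had 114 to 115 CPM. Fabp7 was at 341.6 CPM in Neurod1 TRAP P7 library 4, where the other 4 had 188 to 220 CPM, and P21 was lower than P7 in every fit that left out a library.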

How the results depend on the processing

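Of 120 member values (10 genes, 12 comparisons), direction and call stayed as reported for 116 with DESeq2, 115 with library size only and 119 without the filter. With a replicate block this held for 103 of 110. Fits that each left out a library gave more values, of which 966 stayed, 19 lost a call, 5 gained one and 20 changed sign. With library size only, 2 members were higher at P21 than at P7 (all genes: 4883 higher and 7162 lower). The log2 values of uncalled genes turned to -0.122 (Aqp4) and -0.1744 (Hopx). Slc1a2 in that comparison was 0.04856 with DESeq2 and 0.01657 without the filter, and Hopx -0.004572 with a replicate block. That scaling gave medians of all genes of -0.463 for TRAP against input (-0.066 with TMM), -0.152 for P21 against P12 (0.000878), -0.223 for P21 against P7 (-0.0501), -0.24 for Math1 TRAP against DIV0 (-0.0267), 0.0948 for DIV5 against DIV2 (-0.0471) and 0.154 for DIV5 against DIV0 (0.0408). It moved the calls to 3451 higher and 6222 lower (4784 and 4821 with TMM) for P21 against P12, to 3732 and 6127 (4922 and 4940) for Math1 TRAP against DIV0, to 5864 and 4357 (4966 and 5699) for DIV5 against DIV2, and to 3133 and 9089 (5667 and 6375) for TRAP against input.

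For Math1 TRAP against DIV0, DESeq2 called 1 member higher, the replicate block 6 lower (Gdf10 at -0.02426), Math1 libraries 1 and 2 alone 6 lower, and libraries 3 and 4 alone 3 higher (Aldoc at 0.01123, Hopx at 0.02401). Over all genes DESeq2 called 4784 higher and 4898 lower, and the replicate block 5463 and 5857, against 4922 and 4940 in the main fit. For Neurod1 against Math1 TRAP, libraries 1 and 2 alone gave 2 members lower and Gfap at 0.01449. Within Ezh1 libraries 1 and 2, a split chosen after seeing the data, Fabp7 was -0.05755 and S100b -0.05941. For UNC1999 against DMSO all genes gave 498 higher and 457 lower with DESeq2, against 1016 and 883 with edgeR, and 602 to 670 higher and 320 to 626 lower when a library was left out. The cause was not tested in any of these cases.

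Leaving out 1 library gave 3 to 5 members lower at P21 than at P12 (3 without P12 library 5), 0 to 1 higher and 1 to 4 lower in Math1 TRAP than at DIV0, and log2 values at P21 against P7 of -0.04055 to 0.1772 (Aqp4), -0.09377 to 0.08902 (Slc1a2) and -0.1123 to 0.09373 (Hopx). Gfap ranged over -0.2347 to 0.05266 in Neurod1 against Math1 TRAP. With UNC1999 the ranges were -0.3037 to 0.003496 (Gfap), -0.05643 to 0.09096 (Aldoc) and -0.4006 to 0.02457 (Hopx), and with Ezh1 cKO S100b ranged over -0.1687 to 0.633. Where 1 library was left in a group, it was assumed to vary like the others.

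Outside the Ezh1 cultures, same-numbered libraries did not deviate together from their group means (correlations of -0.377 to 0.252). The replicate block called Slc1a3 higher at P21 than at P12 (0.4107, adjusted p = 0.0411), as did DESeq2 (0.4158, adjusted p = 0.0422). Between DIV2 and DIV5, where same-numbered libraries correlated at -0.176, crossed pairing, added after seeing the data, called 10 members and 5071 genes higher and 5852 lower. Groups of 2 libraries and single inputs limit precision.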
